A study of Mus musculus with 6 samples.

Results

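The collagen genes of the mouse were taken as all protein-coding genes whose symbol is Col, a number, the letter a and a second number, which gave 44 of the 52550 genes in the files. They fell into 11 fibrillar collagens, 8 basement membrane collagens (collagen IV with the multiplexins Col15a1 and Col18a1) and 25 other collagens. The samples were hippocampi of young adult male mice (C57BL/6 in the labels, C57B6/J in the study's methods), 3 sham (Sham1 to Sham3) and 3 with traumatic brain injury (TBI1 to TBI3), all taken 24 h after surgery, with 1 library per mouse. TBI was a controlled cortical impact of moderate severity over the right parietal cortex after a craniotomy. The sham mice went through the same anaesthesia and craniotomy without the impact, so both groups share the opened skull. Both hippocampi were exposed at dissection, and whether a library held 1 side or both sides is not given in the sources used here.

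Collagens are proteins of the extracellular matrix built from chains that wind into a triple helix. Fibrillar collagens form the ropes of meninges and of the walls of larger vessels, collagen IV forms a sheet under endothelium and around pericytes, and the other classes decorate fibrils, build filaments and networks, or sit in the cell membrane with the helix outside. In brain most of this RNA is made by fibroblasts of the meninges and of the space around vessels, by endothelium and by mural cells, while some collagens, Col25a1 among them, are made by neurons. A bulk library of hippocampus mixes these sources, so fewer cells of a type and less RNA per cell cannot be told apart.

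The deposited estimated counts summed to 38345220 to 41771872 in the sham libraries and 31630936 to 41596363 in the TBI libraries. Among low values the multiples of 4 were overrepresented, so a count may not stand for a single read. The tests took the deposited counts unchanged, as if they were reads, except in an alternative with counts divided by 4. Levels are given as counts scaled to library size (CPM) after TMM normalization, and single genes are ranked against each other only per kilobase of exon. Sums over a class or list are of CPM and are not corrected for length, so that long genes weigh more in them. Some libraries stood apart in genes of other structures. TBI1 had a summed level of 8 striatal markers of 4389 CPM, against 200 to 279 CPM in the other 5 libraries, and its level of Prox1, a marker of dentate granule neurons, was 19.6 CPM against 56.0 CPM or more elsewhere. The summed level of 10 choroid plexus markers was 2064 CPM in Sham1, 2125 in Sham3 and 2407 in TBI2, but 66.3 CPM in Sham2, 243 in TBI1 and 264 in TBI3. TBI3 had the highest summed level of 8 thalamic markers, 833 CPM against 95.5 to 543 CPM.

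No collagen was called between TBI and sham. Calls required p-values below 0.05 unadjusted and below 0.1 adjusted, together with a change of more than 1.5-fold either way. By this rule edgeR's quasi-likelihood test with Benjamini-Hochberg adjustment called 0 of 43 tested collagens, as it called 0% of all 18795 tested genes. The 44th gene, the filament collagen Col6a6, was below the filter with 0 to 20 counts a library. At an unadjusted p under 0.05 there were 3 collagens of 43, against 4.29% of all genes: 1 was higher in TBI, where the share of all genes was 2.16%, and 2 were lower, where it was 2.13%. DESeq2 with its defaults called 46 of 20988 genes (0.219%) and no collagen, and its smallest adjusted p among collagens was 0.389, for Col22a1. In 5 of 43 collagens the levels of the 3 TBI libraries did not overlap those of the 3 sham libraries, against 10.2% of all genes. These shares are close to the background, and the smallest adjusted p of a collagen in edgeR was 0.982.

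Of the 43 tested collagens 16 had a fitted log2 fold change above 0 and 27 below 0, with a median of -0.15, where the median over all tested genes was 0.0091. The median was -0.22 for the fibrillar class (2 higher, 9 lower), -0.28 for the basement membrane class (3 higher, 5 lower) and -0.10 for the other collagens (11 higher, 13 lower). These directions depended on the libraries and on the model. Without Sham2 27 of the same 43 genes were higher in TBI and 16 lower, and the medians were 0.33 for the fibrillar class (9 higher, 2 lower), 0.081 for the basement membrane class (4 higher, 4 lower) and 0.15 for the other collagens (14 higher, 10 lower). Without Sham3 and without TBI1 the split over the 43 genes was 20 higher and 23 lower, and the median of the other collagens was 0.19 and 0.0079. Without Sham1, TBI2 or TBI3 between 15 and 17 genes were higher and the 3 class medians stayed below 0. With the replicate number as a block and all libraries kept, 20 were higher and 23 lower, with medians of -0.05 for the fibrillar class (4 higher, 7 lower), -0.21 for the basement membrane class and 0.028 for the other collagens. Without Sham2 and TBI1 together, a setting chosen after seeing the data, 10 of 11 fibrillar collagens were higher in TBI, with a median of 0.35. The other classes were nearly even there, with medians of 0.073 for the basement membrane class (4 higher, 4 lower) and 0.056 for the other collagens (12 higher, 11 lower).

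**Figure D1:**
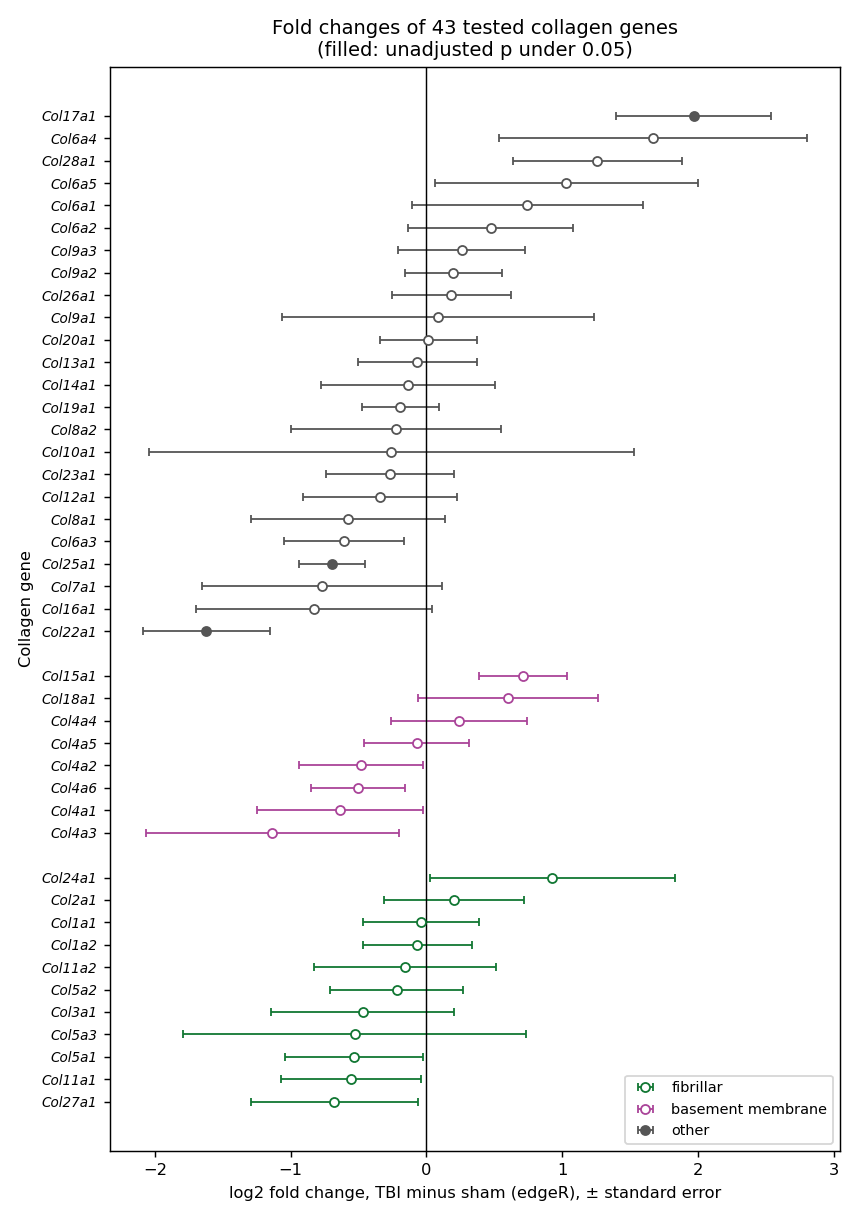
Log2 fold change of each of the 43 tested collagens (x axis, TBI minus sham, edgeR) with its standard error as a bar, grouped by class (colour). The fold changes run from -1.62 (Col22a1) to 1.97 (Col17a1), and only the 3 filled points, all in the class of other collagens, have an unadjusted p under 0.05.

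Sham2 was the highest of the 6 libraries for 17 of the 43 tested collagens, while it was the highest for 23.7% of all tested genes. By class it was the highest library for 7 of 11 fibrillar, 3 of 8 basement membrane and 7 of 24 other collagens. The summed level of the basement membrane class was 59.2 CPM in Sham1, 187 in Sham2 and 76.0 in Sham3, against 96.7 in TBI1, 79.7 in TBI2 and 73.3 in TBI3. That class made up 35.0% of all collagen CPM, uncorrected for length, in Sham2 and 23.2% to 28.6% in the other libraries. The fibrillar class summed to 72.5, 139 and 87.5 CPM in Sham1 to Sham3 and to 75.5, 104 and 70.1 CPM in TBI1 to TBI3. Markers of cells that make collagen gave a mixed picture in Sham2, which was the highest library for 6 of 17 markers of meningeal and perivascular fibroblasts, 5 of 15 endothelial markers and 1 of 11 pericyte markers. Among the fibroblast markers Aldh1a2, which makes retinoic acid, had 35.0 CPM in Sham2 and 5.10 to 14.4 CPM elsewhere, while the growth factor gene Igf2 had 7.35 CPM in Sham2 and 31.9 to 152 CPM elsewhere. The summed level of the fibroblast markers in Sham2 was 247 CPM, within the 156 to 378 CPM of the others. Igf2 and Pdgfra (75.2 CPM in Sham2, 57.6 to 85.3 CPM elsewhere) weighed heavily in that sum, so it is not an even measure of the list. The summed level of the endothelial markers in Sham2 was 404 CPM, within the 340 to 509 CPM of the others. The summed level of pericyte markers in Sham2, 184 CPM, was the lowest of the 6 (220 to 256 CPM in the others). That list was split. Its 2 largest members, Rgs5 (74.8 CPM against 102 to 136 CPM) and Vtn (35.8 CPM against 42.2 to 52.4 CPM), were lowest in Sham2. Pdgfrb was highest there (20.5 CPM against 12.7 to 20.1 CPM). The part of any of these cells in the Sham2 levels was not tested.

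**Figure D2:**
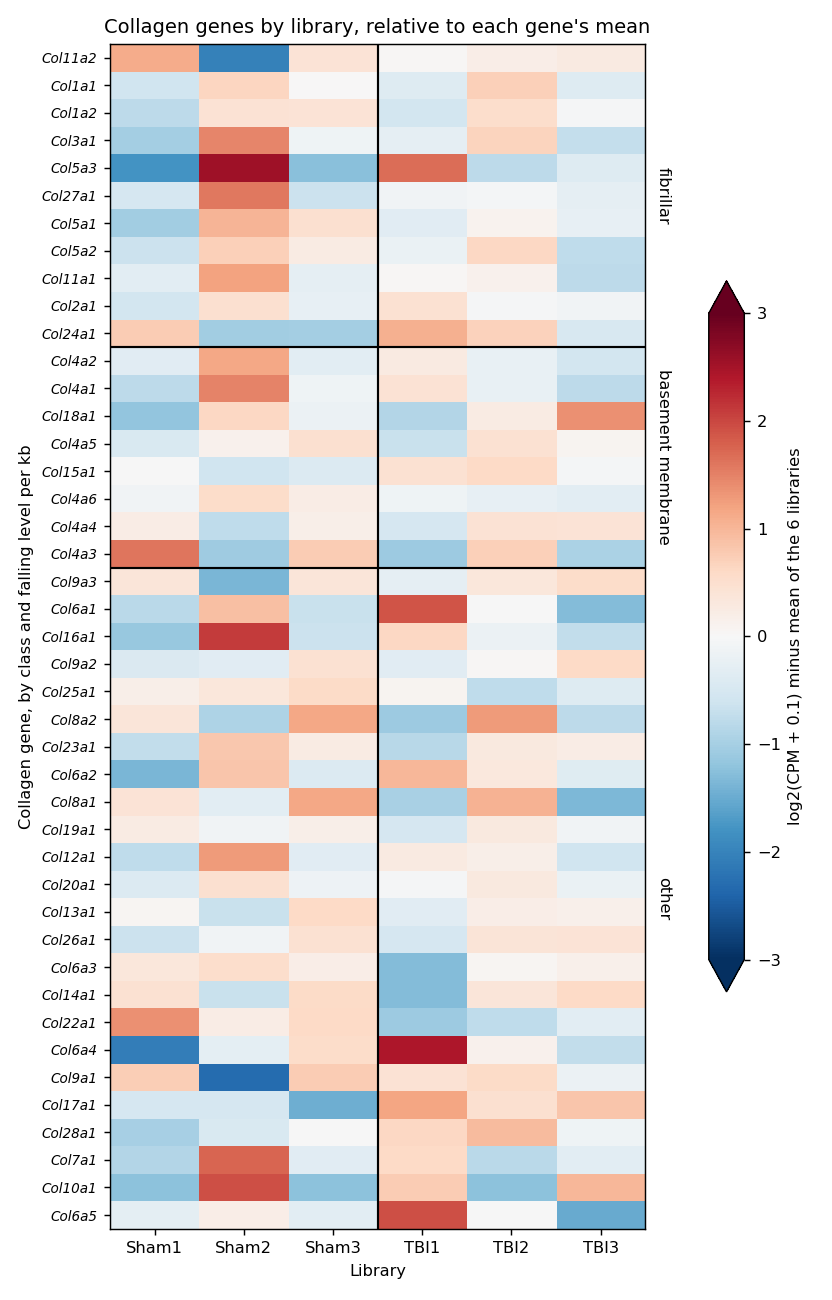
Each row is a tested collagen and each column a library, coloured by log2(CPM + 0.1) minus the gene's mean over the 6 libraries (red, above; blue, below). Sham2 is the reddest column for Col5a3, Col16a1, Col4a1 and Col27a1 and the bluest for Col11a2 and Col9a3, while TBI1 is reddest for Col6a1, Col6a4 and Col6a5.

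Among the fibrillar collagens, Col1a1 and Col1a2 encode the chains of type I collagen, the main fibril of meninges and of connective tissue at large. Col1a1 had 8.25, 19.6 and 12.6 CPM in Sham1 to Sham3 and 9.53, 20.4 and 9.44 CPM in TBI1 to TBI3, a log2 fold change of -0.04 (SE 0.43). Col1a2 had 11.2, 26.5 and 25.8 CPM in sham and 13.3, 28.1 and 19.2 CPM in TBI, a log2 fold change of -0.07 (SE 0.40). For both genes TBI2 was the highest library and Sham1 the lowest, so the spread lay within the groups and the groups overlapped. Col3a1, the chain of type III collagen of distensible tissues such as vessel walls, had 3.65, 20.6 and 6.85 CPM in sham and 6.20, 11.8 and 4.50 CPM in TBI. Its log2 fold change was -0.47 (SE 0.67) with all libraries and 0.51 without Sham2.

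Col5a3, a minor fibril chain of type V collagen, had the widest range of the fibrillar class, 22.6-fold. Its level was 0.864, 19.6 and 1.30 CPM in sham and 10.7, 1.86 and 2.47 CPM in TBI. Sham2 lay 18.1-fold above the mean of the other sham libraries, and TBI1 was the next highest. The log2 fold change was -0.53 (SE 1.26), and without Sham2 it was 2.21 with an unadjusted p of 0.0491 and an adjusted p of 0.997 in edgeR's quasi-likelihood test. The partner chains Col5a1 (2.22 to 9.60 CPM) and Col5a2 (2.50 to 7.18 CPM) were also highest in Sham2. Col27a1, a fibrillar collagen known from cartilage, had 5.38, 23.3 and 4.92 CPM in sham and 7.20, 7.46 and 6.35 CPM in TBI. The 3 TBI libraries and the other 2 sham libraries lay close together for Col27a1, and its log2 fold change was -0.68 (SE 0.61) with Sham2 and 0.44 without it.

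Col11a2, a chain of type XI collagen, went the other way in Sham2. It had 34.4, 3.76 and 21.0 CPM in sham and 16.0, 18.1 and 19.1 CPM in TBI, so Sham2 was the lowest library and Sham1 the highest. Its log2 fold change was -0.15 (SE 0.67), -0.65 without Sham2 and 0.52 without Sham1. Per kilobase Col11a2 was the highest of the fibrillar class (mean of 6 libraries 2.73 CPM per kb), followed by Col1a1 (2.03) and Col1a2 (1.66), and the lowest were the cartilage collagen Col2a1 (0.0615) and Col24a1 (0.0508).

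Among the basement membrane collagens, Col4a1 and Col4a2 encode the chains of the collagen IV trimer found under nearly all endothelium, and changes in either gene are a known cause of small vessel disease of the brain. Col4a1 had 17.8, 87.0 and 28.4 CPM in sham and 41.6, 26.2 and 17.9 CPM in TBI. Col4a2 had 27.5, 77.7 and 27.8 CPM in sham and 42.2, 29.5 and 23.7 CPM in TBI. Both were highest in Sham2, at 3.77-fold and 2.81-fold of the mean of the other sham libraries, and second highest in TBI1. The log2 fold changes were -0.63 (SE 0.61) for Col4a1 and -0.48 (SE 0.46) for Col4a2, and 0.31 and 0.20 without Sham2. Per kilobase Col4a2 (5.75 CPM per kb) was the highest of all 44 collagens and Col4a1 (4.89) the third, after Col9a3 (5.14). The genes stand head to head on chromosome 8 of GRCm38, Col4a1 on the minus strand (chr8:11198423-11312826) and Col4a2 on the plus strand (chr8:11312805-11449287), and their first exons share 22 bases, under 1% of the exonic length of each.

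The remaining chains of collagen IV were lower. Col4a5, on the X chromosome, had 3.75, 5.71 and 7.29 CPM in sham and 3.23, 7.21 and 5.51 CPM in TBI, with a log2 fold change of -0.07 (SE 0.38). Its neighbour Col4a6, a partner of Col4a5 in some basement membranes, had 1.19, 1.94 and 1.51 CPM in sham and 1.18, 1.07 and 1.01 CPM in TBI. The TBI libraries lay below the sham libraries for Col4a6, but Sham1 and TBI1 were nearly level, and the log2 fold change of -0.51 (SE 0.35) had an unadjusted p of 0.189 in edgeR and was -0.31 without Sham2. Col4a4, at 0.498 to 1.26 CPM, did not separate the groups.

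The multiplexins carry sugar chains and lie at the outer face of vascular basement membranes. Col15a1 had 2.35, 1.52 and 1.75 CPM in sham and 3.28, 3.63 and 2.28 CPM in TBI, with an overlap of TBI3 and Sham1. Its log2 fold change of 0.71 (SE 0.33) had an unadjusted p of 0.0678 in edgeR's quasi-likelihood test and an adjusted p of 0.982, and it stayed between 0.53 and 0.91 over 16 alternatives. Col18a1, the source of the fragment endostatin, had 3.56, 12.7 and 7.16 CPM in sham and 4.36, 9.70 and 21.4 CPM in TBI. TBI3 alone stood above the sham range, and without it the log2 fold change of 0.60 (SE 0.66) became -0.15. TBI3 was also the library with the most thalamic marker RNA, and the part of that in the Col18a1 level was not tested.

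**Figure D3:**
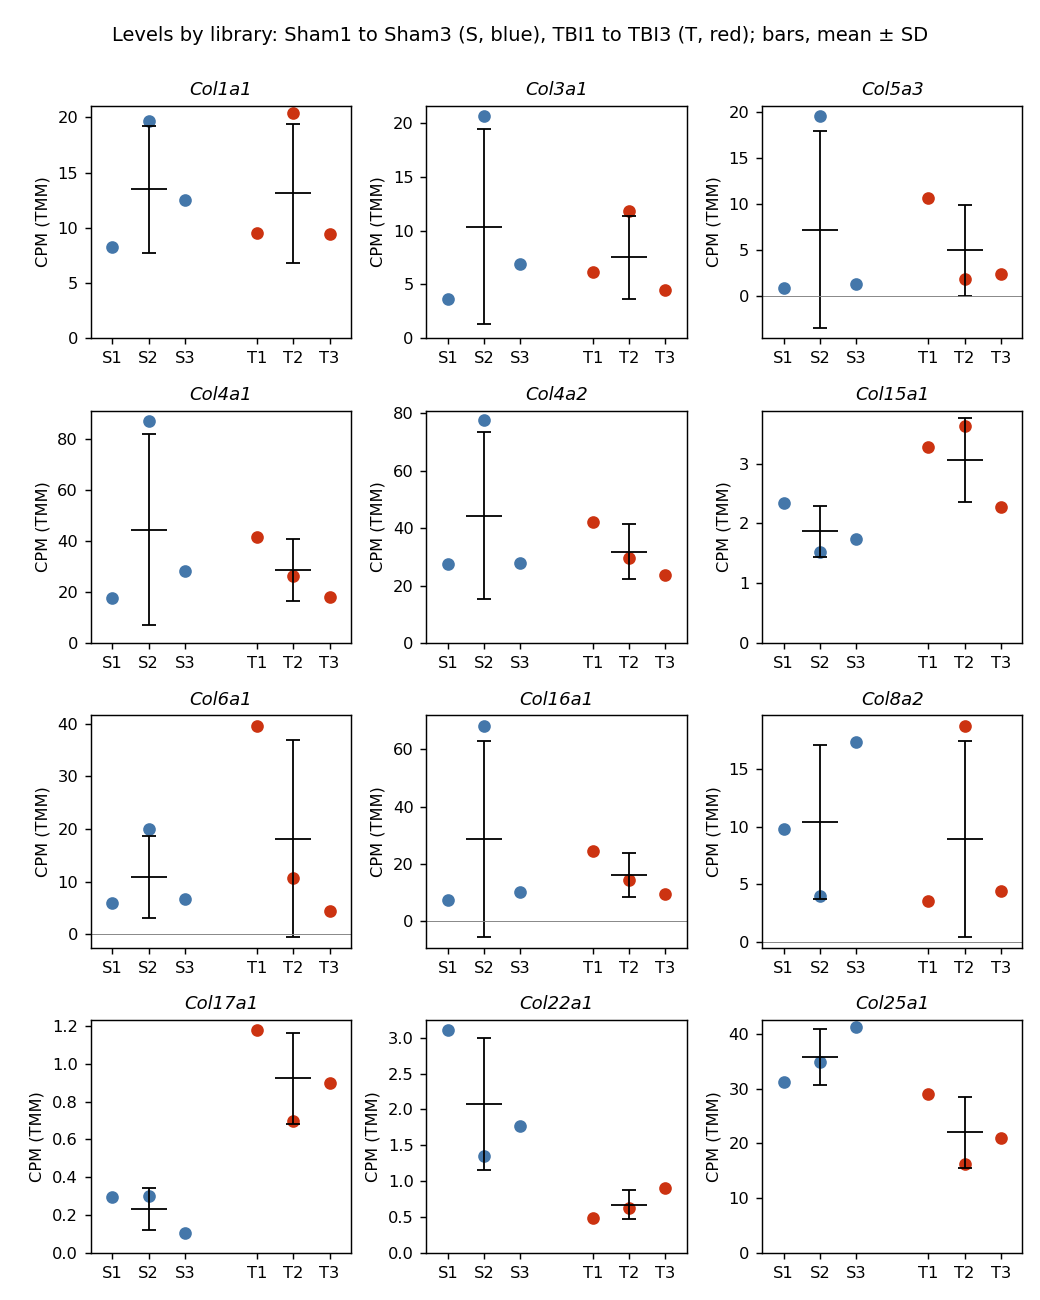
Level of 12 collagens (y axis, CPM after TMM scaling, a linear scale for each gene) in each library (points; sham blue, TBI red) with the mean ± SD of each group of 3 (bars). Sham2 carries the sham mean for Col3a1, Col5a3, Col4a1, Col4a2 and Col16a1, TBI1 carries the TBI mean for Col6a1, and only Col17a1, Col22a1 and Col25a1 in this set have groups that do not overlap.

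The 3 collagens with an unadjusted p under 0.05 were all in the class of other collagens. Col25a1, a transmembrane collagen of neurons whose shed part is found in amyloid plaques, had 31.2, 34.9 and 41.2 CPM in sham and 29.1, 16.2 and 21.0 CPM in TBI. Every TBI library lay below every sham library, TBI1 only just. The log2 fold change was -0.70 (SE 0.24), with an unadjusted p of 0.0243 and an adjusted p of 0.982 in edgeR's quasi-likelihood test. It lay between -0.96 and -0.52 over 16 alternatives, and the unadjusted p was not under 0.05 without Sham3, without TBI2 and without TBI3. Hippocampal neuron markers, 10 genes in all, summed to 813, 598 and 614 CPM in sham and to 344, 516 and 345 CPM in TBI. In TBI1 most of the sum was Wfs1, at 276 CPM, and the other 9 markers had their lowest level there. The median log2 fold change of the 10 was -1.11, and their part in the Col25a1 level was not tested. The gene lies at chr3:130131501-130599877 of GRCm38, on the plus strand.

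Col22a1, a collagen of tissue junctions such as that of muscle and tendon, had 3.11, 1.35 and 1.77 CPM in sham and 0.490, 0.632 and 0.899 CPM in TBI. The deposited counts behind these levels were 126, 54 and 68 in sham and 20, 20 and 32 in TBI. All TBI libraries lay below all sham libraries, with a log2 fold change of -1.62 (SE 0.47), an unadjusted p of 0.0112 and an adjusted p of 0.982 in edgeR's quasi-likelihood test. Over 16 alternatives the log2 fold change lay between -1.89 and -1.20, with adjusted p-values from 0.353 upwards, and the unadjusted p was not under 0.05 without Sham1. It was the lowest log2 fold change among the 43 collagens, in a gene of 0.149 CPM per kb.

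Col17a1, a transmembrane collagen known from the attachment of skin epithelium, had 12, 12 and 4 counts in Sham1 to Sham3 and 48, 22 and 32 counts in TBI1 to TBI3. Its levels were 0.296, 0.299 and 0.104 CPM in sham and 1.18, 0.695 and 0.899 CPM in TBI. It was the only collagen whose TBI libraries all lay above the sham libraries, with a log2 fold change of 1.97 (SE 0.57), an unadjusted p of 0.0116 and an adjusted p of 0.982 in edgeR's quasi-likelihood test. With counts divided by 4, or with at least 10 counts asked of every library, Col17a1 was below the filter.

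Col6a1 and Col6a2 encode chains of type VI collagen, which forms beaded filaments around cells and next to basement membranes. Col6a1 had 6.00, 19.9 and 6.67 CPM in sham and 39.6, 10.6 and 4.30 CPM in TBI. TBI1 was the highest library and TBI3 the lowest, and the log2 fold change of 0.74 (SE 0.85) was -0.54 without TBI1 and 1.52 without Sham2. Col6a2 had 2.47, 11.6 and 4.85 CPM in sham and 13.1, 8.15 and 5.09 CPM in TBI. The homologues Col6a4 (3.85 CPM in TBI1 and 0.0741 to 0.964 CPM elsewhere) and Col6a5 (2.20 CPM in TBI1 and 0.112 to 0.598 CPM elsewhere) were also highest in TBI1. That library is the one with striatal marker RNA, whose part in the type VI levels was not tested. Col6a3, the long chain of the filament, was instead lowest in TBI1, with 3.04, 3.44 and 2.76 CPM in sham and 0.906, 2.50 and 2.67 CPM in TBI. Its groups did not overlap, and its log2 fold change was -0.61 (SE 0.44) with an unadjusted p of 0.214 in edgeR and -0.25 without TBI1.

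The FACIT collagens (fibril-associated collagens with interrupted helices) bind the surface of fibrils. Col16a1 had 7.23, 68.2 and 10.1 CPM in sham and 24.5, 14.3 and 9.47 CPM in TBI, with Sham2 at 7.86-fold of the mean of the other sham libraries. Its log2 fold change was -0.83 (SE 0.87) with all libraries and 0.89 without Sham2. Col12a1 was likewise highest in Sham2, at 18.6 CPM against 4.47 to 9.24 CPM elsewhere. Col9a3, a chain of type IX collagen, was lowest there, with 23.6, 7.03 and 23.4 CPM in sham and 15.2, 23.1 and 26.5 CPM in TBI. Its log2 fold change of 0.26 (SE 0.47) was -0.12 without Sham2. Col9a3 shares 6.07% of its exonic bases with Tcfl5 on the opposite strand, and the strand setting of the counts is not given in the sources used here. Its partner Col9a2 had 5.28, 5.71 and 9.95 CPM in sham and 5.66, 7.43 and 11.0 CPM in TBI, a log2 fold change of 0.20 (SE 0.36) with overlapping groups.

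Col8a1 and Col8a2 encode the short chains of type VIII collagen, a network known from the corneal endothelium and from vessel walls. Col8a2 had 9.83, 3.96 and 17.3 CPM in sham and 3.55, 18.7 and 4.38 CPM in TBI. Col8a1, named here after its values were seen, had 7.58, 4.59 and 12.9 CPM in sham and 2.84, 11.8 and 2.19 CPM in TBI. Sham1, Sham3 and TBI2 were the 3 highest libraries for both, in both groups of mice at once, and the log2 fold changes of -0.23 (SE 0.77) and -0.58 (SE 0.71) were small against that spread. Without TBI2 they were -1.40 for Col8a2 and -1.74 for Col8a1. The latter had an unadjusted p of 0.0166 and an adjusted p of 0.748 in edgeR's quasi-likelihood test. Sham1, Sham3 and TBI2 are the 3 libraries with high choroid plexus RNA: Ttr, the transthyretin gene and the main transcript of choroid plexus epithelium, had 1896, 26.3 and 1930 CPM in sham and 201, 2199 and 225 CPM in TBI. The same 3 libraries were the highest for 5 of 43 collagens, against 6.53% of all genes, the others being Col4a3, Col9a1 and Col19a1. Col4a3, a collagen IV chain best known from the kidney glomerulus, had 1.98, 0.224 and 1.04 CPM in sham and 0.220, 1.01 and 0.253 CPM in TBI, and shares 5.65% of its exonic bases with a processed transcript on the opposite strand. Col9a1 had no count in Sham2 and 12 to 29 counts elsewhere, and Col19a1 (3.04 to 5.34 CPM) varied little. The part of choroid plexus tissue in these levels was not tested.

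**Figure D4:**
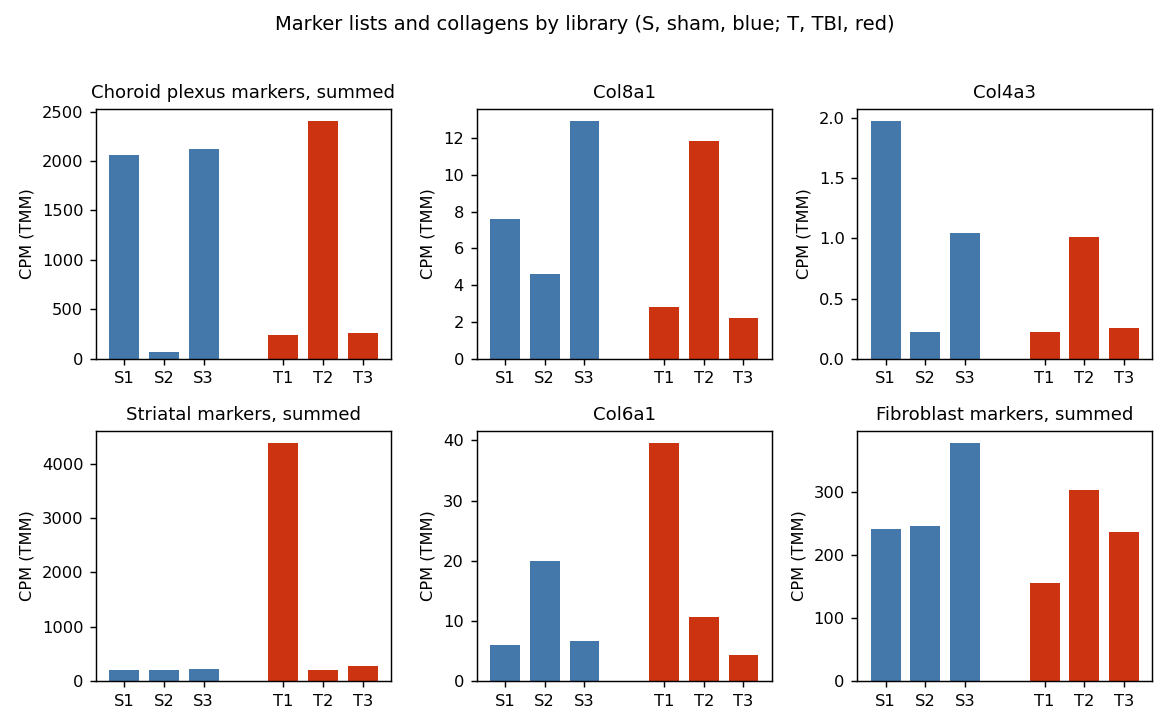
Bars give the summed CPM of a marker list or the CPM of a collagen (y axes, linear from 0) in each library (S, sham, blue; T, TBI, red). Sham1, Sham3 and TBI2 are the high libraries for choroid plexus markers (2064 to 2407 CPM), Col8a1 and Col4a3, and TBI1 is the high library for striatal markers (4389 CPM) and Col6a1 (39.6 CPM).

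Since Col8a1 and Col8a2 had the same high libraries, the 250 bases before their starts are shown, read from RefSeq windows on GRCm38.p6, with GC boxes (GGGCGG, or CCGCCC where the box is on the opposite strand) in capitals. The Col8a1 stretch is chr16:57754738-57754987 on the minus strand and the Col8a2 stretch is chr4:126286544-126286793 on the plus strand. The last base of the Col8a2 stretch is the first base of the gene in GENCODE vM21.
Col8a1: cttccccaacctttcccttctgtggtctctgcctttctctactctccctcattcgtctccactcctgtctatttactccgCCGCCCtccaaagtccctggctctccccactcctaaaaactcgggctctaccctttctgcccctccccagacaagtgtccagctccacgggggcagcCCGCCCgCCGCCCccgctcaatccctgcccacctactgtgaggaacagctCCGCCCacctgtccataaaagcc
Col8a2: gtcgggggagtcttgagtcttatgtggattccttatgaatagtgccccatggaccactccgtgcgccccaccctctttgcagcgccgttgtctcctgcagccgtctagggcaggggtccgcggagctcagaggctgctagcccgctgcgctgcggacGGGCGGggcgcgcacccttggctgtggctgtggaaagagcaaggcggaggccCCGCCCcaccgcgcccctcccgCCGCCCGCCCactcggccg
Each stretch holds 4 GC boxes, the first bases of which lie 170, 73, 66 and 23 bases before the start of Col8a1 and 93, 41, 19 and 15 bases before that of Col8a2, where the last 2 overlap. Neither stretch holds TATAAA or CCAAT on either strand. A window was found for 35 of the 44 collagens. A GC box on either strand was in 21 of the 35 (60.0%), against 32.7% of all 32851 windows and 42.6% of those of protein-coding genes. TATAAA was in 14.3% of the collagen windows and 12.4% of all windows, and CCAAT in 34.3% and 33.8%. These matches describe the letters only.

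Because chains of a trimer are made together, the ratio of partner chains was compared across libraries. The log2 ratio of Col4a1 to Col4a2 was -0.63, 0.16 and 0.03 in sham and -0.02, -0.17 and -0.40 in TBI. This ratio varied 1.73-fold over the 6 libraries, while Col4a1 itself varied 4.88-fold and Col4a2 3.28-fold. The log2 ratio of Col1a1 to Col1a2 was -0.45, -0.43 and -1.04 in sham and -0.48, -0.46 and -1.02 in TBI, a range of 1.52-fold where the genes varied 2.47-fold and 2.50-fold. The ratio of Col6a1 to Col6a2 was less even, with log2 values of 1.28, 0.78 and 0.46 in sham and 1.60, 0.38 and -0.24 in TBI, a range of 3.58-fold.

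Between TBI and sham the mean log2 ratio differed by -0.02 for type I, -0.05 for type IV and -0.26 for type VI. The exact two-sided permutation tests gave p-values of 0.7, 0.9 and 0.7, which are 0.9 each after Benjamini-Hochberg adjustment over the 3 ratios. With 3 libraries against 3 the smallest p such a test can give is 0.1, so it could not have passed 0.05.

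**Figure D5:**
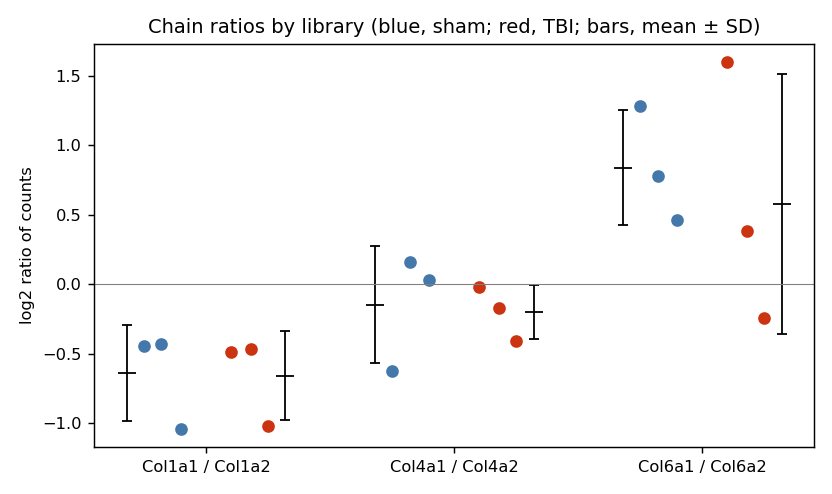
Log2 ratio of the counts of partner chains (y axis) in each library (points; sham blue, TBI red) with the mean ± SD of each group (bars). The Col1a1 and Col4a1 ratios span 1.52-fold and 1.73-fold over all libraries, and the Col6a1 ratio spans 3.58-fold, with TBI1 the highest and TBI3 the lowest.

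The genes that make, cut, anchor and bind collagens were taken from 5 lists with 79 genes in all, 78 of them tested. None was called by edgeR, and 4 had an unadjusted p under 0.05, all lower in TBI, where the shares of all tested genes were 4.29% in either direction and 2.13% lower. Among 23 genes of chain synthesis, folding and export, none was higher and 2 were lower at that threshold (2.16% and 2.13% of all genes). Sec24d, a coat protein of the vesicles that carry procollagen, had 33.2, 55.9 and 28.3 CPM in sham and 17.0, 27.1 and 18.7 CPM in TBI, with every TBI library below every sham library. Its log2 fold change was -0.90 (SE 0.31), with an unadjusted p of 0.0234 and an adjusted p of 0.982 in edgeR, and it was -0.56 without Sham2. P3h2, a prolyl 3-hydroxylase that acts on collagen IV, had 4.59, 6.78 and 5.39 CPM in sham and 2.67, 3.79 and 4.02 CPM in TBI, a log2 fold change of -0.68 (SE 0.28, unadjusted p 0.0467, edgeR). The most abundant members per kilobase were close to even between the groups, with log2 fold changes of -0.08 for P4hb, a subunit of prolyl 4-hydroxylase, -0.09 for the isomerase Ppib and -0.22 for the coat protein Sec23a.

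None of 13 genes of procollagen cleavage and cross-linking passed an unadjusted p of 0.05. Sham2 was the highest library for 5 of them, among them the lysyl oxidase homologue Loxl1 (6.15, 26.1 and 3.59 CPM in sham, 7.94, 6.00 and 3.20 CPM in TBI) and the procollagen C-proteinase Bmp1 (25.3, 70.0 and 21.4 CPM in sham, 34.4, 25.6 and 43.5 CPM in TBI). Their log2 fold changes were -1.06 and -0.17 with all libraries and 0.23 and 0.56 without Sham2. Adamts3, which cuts the amino end of procollagen, had 29.8 CPM in TBI1 and 6.01 to 12.1 CPM elsewhere. Among 17 partners of collagen IV in basement membranes, Sham2 was the highest library for 9 and none passed that threshold. Sparc, a collagen-binding protein of glia and vessels, had 455, 536 and 542 CPM in sham and 531, 641 and 1061 CPM in TBI, a log2 fold change of 0.54 (SE 0.26, unadjusted p 0.0780, edgeR) that was 0.19 without TBI3. The log2 fold change was -0.04 for Agrn (agrin) and 0.12 for the laminin chain Lamb2.

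Of 10 tested collagen receptors, 1 was lower at an unadjusted p under 0.05 and none was higher. Itga2, the integrin chain for fibrillar collagen of platelets and epithelia, had 0.395, 6.85 and 0.234 CPM in sham and 0.122, 0.158 and 0.365 CPM in TBI. That log2 fold change of -3.52 (SE 1.40, unadjusted p 0.0414, edgeR) was -0.55 without Sham2, and the groups overlapped. Adgrg1, a receptor of type III collagen in brain, had 56.5, 63.7 and 55.7 CPM in sham and 108, 67.3 and 69.0 CPM in TBI, so each TBI library was above each sham library, with a log2 fold change of 0.47 (SE 0.21, unadjusted p 0.0569, edgeR) that was 0.22 without TBI1. Ddr1 and Itgb1, the most abundant receptors, had log2 fold changes of -0.04 and 0.03.

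Of 15 collagen-binding matrix proteins 14 had a log2 fold change below 0, with a median of -0.42, where 9133 of all 18795 tested genes were below 0, and 1 passed the unadjusted threshold. Of the 15 genes 11 were below 0 without Sham2 (median -0.47), 10 without Sham3 (median -0.49) and 10 without TBI1 (median -0.18). Without Sham2 and TBI1 together, the setting added after seeing the data, 9 were below 0 (median -0.14). Matn2, a matrilin that links matrix filaments, had 68.7, 64.2 and 47.3 CPM in sham and 12.8, 41.8 and 22.0 CPM in TBI, with no overlap, a log2 fold change of -1.24 (SE 0.42) and an unadjusted p of 0.0227 in edgeR (adjusted p 0.982). Dcn, the proteoglycan decorin, which coats type I fibrils and marks fibroblasts, had 34.5, 59.6 and 56.2 CPM in sham and 8.60, 61.7 and 20.9 CPM in TBI. TBI1 was the lowest library for Matn2 and for Dcn, and it also had the lowest summed level of fibroblast markers, a list that itself holds Dcn, Lum and Ogn. The part of fibroblasts was not tested. Prelp, a small proteoglycan that ties collagen to basement membranes, had 24.7, 5.08 and 26.4 CPM in sham and 8.16, 25.3 and 17.2 CPM in TBI. Its highest libraries, Sham1, Sham3 and TBI2, are those with high choroid plexus RNA, whose part was not tested. Without Sham2, 3.39% of all genes had an unadjusted p under 0.05, no gene of the 5 lists did, and 6 of 44 collagens did: Col17a1, Col5a3 and Col6a2 higher in TBI and Col11a2, Col22a1 and Col25a1 lower, each with an adjusted p of 0.997 in edgeR.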

How the data were processed

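The authors used FastQC for read quality, HISAT2 for alignment to GRCm38 and StringTie for quantification (versions not given in the sources used here). They deposited estimated counts, 1 whole number per gene and mouse, which were not normalized. DESeq2 is also named in the submitters' processing notes. Of 52550 identifiers 52403 were matched to GENCODE vM21. Low genes were removed by filterByExpr, libraries were normalized by TMM, and the groups were compared with the quasi-likelihood test of edgeR 4.0.16 (R 4.3.3, limma 3.58.1) with Benjamini-Hochberg adjustment over 18795 genes. DESeq2 1.42.0 was an alternative. Standard errors came from the fold change and the F statistic. The scripts were tested on simulated counts that had a common dispersion for all genes and no library standing apart, unlike these data. Chain ratios were compared by exact permutation. P-values set the difference between groups against the spread between libraries, 1 per mouse and 3 a group. That spread includes the differences between libraries in genes of other structures. In edgeR and DESeq2 it was estimated with information shared over genes.

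Groups came from the sample labels. The members and lists were chosen with earlier results of these data known. Named collagens were the 6 highest per kb in each class, with all members at an unadjusted p under 0.05 or with groups that did not overlap; in the 5 pathway lists, the 3 highest per kb and all at that p. Col2a1, Col24a1, Col5a1, Col5a2, Col4a3, Col4a4, Col6a2, Col6a4, Col6a5, Col8a1, Col9a1, Col12a1 and Col19a1, and the markers Aldh1a2, Igf2, Pdgfra, Rgs5, Vtn and Pdgfrb, were outside this rule and named after their values were seen. Length was the union of annotated exons. Alternatives were DESeq2 with and without independent filtering, other scalings and filters, counts divided by 4, protein-coding genes only, a stricter or no threshold, each library left out, the replicate block, and, added after seeing the data, leaving out Sham2 and TBI1 together.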

Additional observations from a re-analysis of the deposited data

How the results depend on the processing

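No collagen was called under any of the alternatives for that count, DESeq2, the stricter adjusted p of 0.05, the missing fold change threshold and the omission of Sham2 with TBI1 (added after seeing the data) included. The direction of Col4a6, Col15a1, Col6a3, Col22a1, Col17a1 and Col25a1 was kept under every alternative that gave them a value. Deviations of sham and TBI libraries with the same number correlated at -0.10, -0.065 and 0.15, and the closest pair was Sham2 with TBI1 (0.21). With 3 libraries a group, some of which stand apart in genes of other structures, this cannot tell whether the numbers pair the mice. With the replicate block the log2 fold changes of Col5a3 (0.57), Col11a2 (0.27) and Bmp1 (0.029) were above 0, 3 collagens and 3.85% of all genes had an unadjusted p under 0.05, no collagen was called and the mean ratios were the same. Genes of the pathway lists at that p numbered 2 with the replicate block and 2 with counts divided by 4 (4.47% of all genes, where fewer passed the filter), against 4.

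With libraries left out, collagens at an unadjusted p under 0.05 numbered 2 (without Sham3) to 6 (without Sham2), and pathway genes 0 (without Sham2) to 6 (without TBI2), with 2 without TBI3. The share of all tested genes at that p moved as well, from 2.49% without Sham1 to 5.82% without TBI2, with 3.39% without Sham2, 4.52% without Sham3 and 2.88% without TBI3. The difference of the log2 ratio ranged from -0.22 to 0.17 for type I, -0.29 to 0.10 for type IV and -0.80 to 0.15 for type VI. Log2 fold changes of collagens that changed sign ranged from -0.51 to 0.52 (Col1a1), -0.39 to 0.35 (Col1a2), -0.95 to 0.63 (Col3a1), -1.74 to 2.21 (Col5a3), -0.65 to 0.52 (Col11a2), -1.04 to 0.44 (Col27a1), -1.01 to 0.31 (Col4a1), -0.74 to 0.20 (Col4a2), -0.36 to 0.20 (Col4a5), -0.15 to 1.54 (Col18a1), -0.54 to 1.52 (Col6a1), -0.10 to 0.54 (Col9a2), -0.12 to 0.51 (Col9a3), -1.27 to 0.89 (Col16a1) and -1.40 to 0.35 (Col8a2). For pathway genes they ranged from -0.26 to 0.19 (P4hb), -0.47 to 0.57 (Bmp1), -1.49 to 0.23 (Loxl1), -0.77 to 0.91 (Adamts3), -0.26 to 0.088 (Agrn), -0.070 to 0.22 (Itgb1), -0.21 to 0.097 (Ddr1) and -0.60 to 0.18 (Prelp). The ranges of log2 fold changes cover only the genes named by the rule above. The cause of the changes of sign was not tested. Precision is limited by 3 mice a group. The models took counting error from the deposited counts, which may not be reads, so that part of the standard errors is uncertain.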
